A study of Mus musculus with 20 samples.

Results

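The small proline-rich genes, whose symbols start with Sprr, were followed in uterine RNA of 20 mice. The deposited table lists 16 Sprr genes among 45777 genes. They were ranked by their mean abundance over the 20 libraries, in TPM (transcripts per fixed number of transcripts), and the 10 chosen by the highest mean TPM are described: Sprr2f, Sprr2g, Sprr2a3, Sprr2a1, Sprr2a2, Sprr1a, Sprr2b, Sprr2e, Sprr2d and Sprr2i. Because the members were chosen by their level, the level itself is given as a description. The last gene inside the ranking, Sprr2i, had a mean of 0.00915 TPM and was above 0 in 1 library, and the first outside it, Sprr2h, had a mean of 0.00519 TPM and was likewise above 0 in 1 library. Sprr1b, Sprr2j-ps, Sprr2k, Sprr3 and Sprr4 were listed at 0 in every library.

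SPRR proteins are short, proline-rich precursors of the cornified envelope, the protein shell that stratified squamous epithelia such as the epidermis build under the membrane of their outermost cells. Transglutaminases crosslink them to involucrin, loricrin and other envelope proteins. The genes stand in the epidermal differentiation complex of chromosome 3, and Sprr2 genes are also known in the simple epithelium of the rodent uterus, where estrogen induces them.

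All mice were mated B6D2F1 females of 8 to 12 weeks, labelled wild type, and the uterus was taken in the evening of day 3.5 after mating, shortly before embryos implant. Each group had 5 mice with 1 library each. The control group was untreated. The implantation failure (IF) group received RU486, an antagonist of the progesterone and glucocorticoid receptors, at 3 mg/kg on the morning of day 3.5. The PBMC and PBMC-hCG groups received the same RU486 and, on day 1.5, 50000 peripheral blood mononuclear cells in each uterine horn, taken from mice that were not pregnant and cultured for 24 hours without or with human chorionic gonadotropin (hCG) at 5 IU/mL. Mice given medium without cells were not analysed here, so an effect of the injection or of hCG itself cannot be told apart from that of the cells. In whole uterus, moreover, fewer epithelial cells and less RNA per cell cannot be told apart.

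Library totals lay between 999989 and 999999 TPM, so the reads behind a value are unknown and no counting error is given. Log2 values of mice in the same group correlated at 0.961 to 0.992. The epithelial markers Epcam, Cdh1, Krt8, Krt18, Krt19, Krt7, Cldn7 and Foxa2 were above 0 in all libraries, with sums of 625 to 1123 TPM in the control, 961 to 1200.0 in the IF, 1023 to 1377 in the PBMC and 1060.2 to 1351 in the PBMC-hCG group. Markers of stratified squamous epithelium were low, at summed levels of 6.73 to 8.98, 9.21 to 13.1, 8.78 to 11.2 and 10.6 to 13.9 TPM over 10 genes in the same order of groups, and the basal keratin gene Krt5 was listed at 0 in 9 libraries.

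The coding sequences of the 2 most abundant members show why the family carries its name and how alike its members are. The GENCODE M21 annotation of GRCm38 was used, and triplets of the form CCN, which encode proline, are in capitals. In Sprr2f (NCBI gene 20760, chr3:92365187-92366442, plus strand), 30 of 76 coding triplets are of this form, and in Sprr2g (NCBI gene 20761, chr3:92373915-92375229, plus strand) 29 of 76. Sprr2g is listed by RefSeq as a transcribed pseudogene, so its RNA was measured without knowing whether protein is made. Its annotated coding sequence lies in 2 blocks between chr3:92374640 and chr3:92374868, where Sprr2f has 1 block. The printed Sprr2g triplets leave out the gap between the blocks. That gap is shorter than a triplet and thus no intron, so the genome itself does not hold this frame unbroken.
Sprr2f: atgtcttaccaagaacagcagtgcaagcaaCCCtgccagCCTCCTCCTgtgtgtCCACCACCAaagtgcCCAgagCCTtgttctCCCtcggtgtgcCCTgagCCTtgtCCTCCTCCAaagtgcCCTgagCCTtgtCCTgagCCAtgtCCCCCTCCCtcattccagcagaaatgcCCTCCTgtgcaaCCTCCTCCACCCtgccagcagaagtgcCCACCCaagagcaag
Sprr2g: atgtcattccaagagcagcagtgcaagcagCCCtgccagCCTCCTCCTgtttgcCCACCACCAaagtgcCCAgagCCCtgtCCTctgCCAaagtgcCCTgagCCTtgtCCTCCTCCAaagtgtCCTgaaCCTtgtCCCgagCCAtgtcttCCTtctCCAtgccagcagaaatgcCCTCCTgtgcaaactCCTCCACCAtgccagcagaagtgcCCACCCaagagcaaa
Both are 228 bases long and were identical in 88.6% of aligned positions.

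Sprr2a1 (NCBI gene 20755, chr3:92215835-92222491) and Sprr2a2 (NCBI gene 100303744, chr3:92250647-92257304) have the same coding sequence of 249 bases, with 26 of 83 triplets of the form CCN. Sprr2a3 (NCBI gene 100042514, chr3:92285304-92289264) differs from it at 3 bases. The shared sequence is shown because it limits how far the deposited values of these genes can be separated.
Sprr2a1 and Sprr2a2: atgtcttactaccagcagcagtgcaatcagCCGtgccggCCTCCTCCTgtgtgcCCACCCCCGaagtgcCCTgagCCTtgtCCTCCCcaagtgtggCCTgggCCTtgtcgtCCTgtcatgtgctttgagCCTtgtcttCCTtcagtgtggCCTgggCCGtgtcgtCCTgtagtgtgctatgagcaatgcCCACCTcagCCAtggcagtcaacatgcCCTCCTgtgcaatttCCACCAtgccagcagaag
Its identity to Sprr2f was 64.2%. Of all stretches of 100 bases in the annotated Sprr2a1 transcript, 92.5% occur unchanged in another Sprr transcript, and for the longest Sprr2a2 transcript 92.8%. In Sprr2f, Sprr2g, Sprr1a and Sprr2d no such stretch is shared. The deposited values of Sprr2a1 and Sprr2a2 were nearly the same in each mouse, with ratios of 0.980 to 1.20, so they cannot be read as separate measurements. Sprr1a (NCBI gene 20753, chr3:92483954-92485881, minus strand) stands apart in sequence, with a coding sequence of 432 bases, 46 of 144 triplets of the form CCN and 43.8% identity to Sprr2f.

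Sprr2f was the most abundant member and had the 4051st highest mean of the 30695 genes above 0 in any library. In the control group it was at 85.9, 11.04, 84.4, 109 and 12.9 TPM in replicates 1 to 5. IF mice had 53.2, 24.4, 7.96, 25.4 and 22.1 TPM. In the PBMC group the values were 76.9, 32.6, 72.4, 13.8 and 110.2 TPM, and in the PBMC-hCG group 23.0, 5.80, 4.04, 4.82 and 19.8 TPM. The control and PBMC groups each held mice at high and at low levels, the PBMC-hCG mice all stood below the high ones, and every pair of groups overlapped. The means were 60.6 ± 45.4, 26.6 ± 16.4, 61.2 ± 38.2 and 11.5 ± 9.14 TPM (SD, n = 5 each) in the order of groups above.

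Sprr2g, its close relative, was at 30.9, 22.5, 21.1, 43.6 and 2.31 TPM in control replicates 1 to 5. In IF mice it was at 11.4, 6.56, 11.3, 6.89 and 15.1 TPM. PBMC mice had 10.5, 5.63, 19.1, 0.393 and 32.2 TPM, and PBMC-hCG mice 6.28, 0.487, 0.150, 0.482 and 0.596 TPM. In 4 of the 5 PBMC-hCG mice Sprr2g was thus below 1 TPM, a level reached elsewhere in PBMC replicate 4, and all 5 stood below all IF mice. Relative to the mean, the spread was smallest in the IF group, at 10.3 ± 3.58 TPM, and largest in the PBMC-hCG group, at 1.60 ± 2.62 TPM (SD, n = 5 each).

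**Figure D1:**
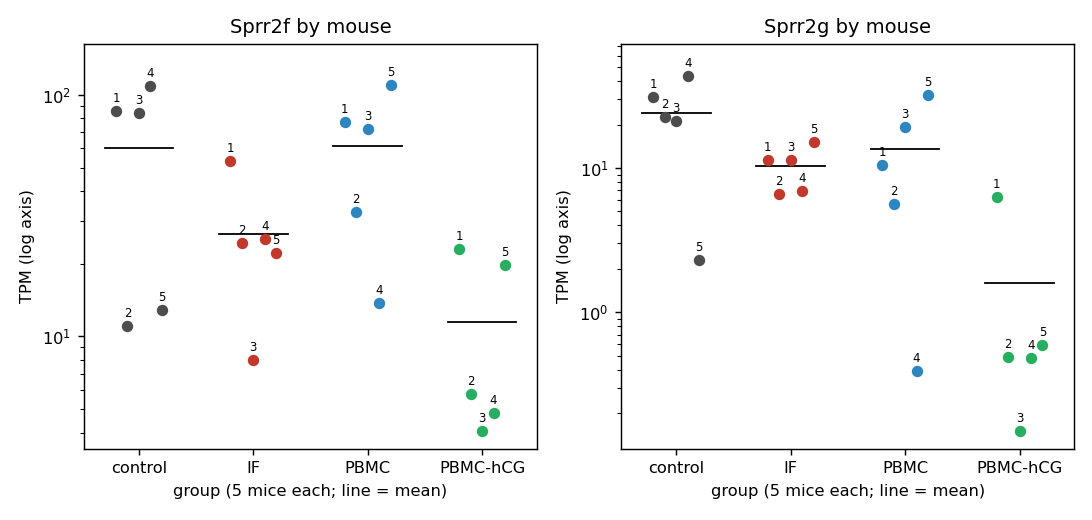
Level of Sprr2f (left) and Sprr2g (right) in TPM on log axes. Each point is a mouse with its replicate number, and the line is the mean of the 5 mice of the group. PBMC-hCG mice lie at 4.04 to 23.0 TPM for Sprr2f and at 0.150 to 6.28 TPM for Sprr2g, while PBMC replicate 4 and control replicates 2 and 5 lie low within their groups for at least 1 of the genes.

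The RNA of the pair did not hold a constant ratio. Sprr2f exceeded Sprr2g in 18 of 20 mice, the exceptions being control replicate 2, with a ratio of 0.490, and IF replicate 3, with 0.703. The median ratio was 2.78 in the control, 3.69 in the IF, 5.79 in the PBMC and 11.9 in the PBMC-hCG group. The highest ratios were 35.0 in PBMC replicate 4, 33.2 in PBMC-hCG replicate 5 and 26.9 in PBMC-hCG replicate 3, all of them mice with Sprr2g below 1 TPM. No test was made of the ratio, since it combines members of the family.

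Sprr2a1 stayed near or under 1 TPM in most mice. Control replicates 1 to 5 had 1.16, 0.0158, 0.848, 0.622 and 0.148 TPM, and IF mice 1.75, 0.796, 0.136, 0.766 and 0.306 TPM. It was at 2.17, 1.10, 3.51, 0.273 and 2.49 TPM in PBMC mice and at 0.781, 0.0862, 0.0849, 0.0268 and 0.663 TPM in PBMC-hCG mice. The PBMC group had the highest mean, 1.91 ± 1.26 TPM (SD, n = 5), and the PBMC-hCG group the lowest, 0.328 ± 0.363 TPM (SD, n = 5), with overlap between them through PBMC replicate 4. Sprr2a2 was close to Sprr2a1 in every mouse.

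The other members were not above 0 in all libraries. Sprr2a3 was above 0 in 17 libraries, at 0 to 1.75 TPM in the control, 0.187 to 2.64 in the IF, 0.318 to 3.80 in the PBMC and 0 to 1.05 in the PBMC-hCG group. Sprr1a, which encodes a longer precursor, was also above 0 in 17 libraries, with group means of 0.455, 0.827, 1.20 and 0.209 TPM in the same order. Sprr2b was above 0 in 14 libraries, with its highest value, 5.06 TPM, in PBMC replicate 5, and it was at 0 in 3 of 5 PBMC-hCG mice. These members were thus low in the same group as Sprr2g, and each of them reached 0 there and in at least 1 other group. Sprr2a3 was at 0 in 2 control mice and in 1 PBMC-hCG mouse.

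Sprr2e and Sprr2d were each above 0 in 6 libraries and Sprr2i in 1. Sprr2e was at 0.287, 0.473 and 0.584 TPM in control replicates 1, 3 and 4, the control mice with the highest Sprr2f. In the other groups it was above 0 in 1 mouse each. Among PBMC mice that was replicate 5, with Sprr2f at 110.2 TPM. In PBMC replicates 1 and 3, with Sprr2f at 76.9 and 72.4 TPM, Sprr2e was at 0. Sprr2d was above 0 in 2 mice of each group except PBMC-hCG, where it was listed at 0 in all 5, and its highest value was 0.438 TPM in PBMC replicate 5. Sprr2i was at 0.183 TPM in PBMC replicate 1. An exact 0 in a TPM table can be a failed estimate, so no fold change is drawn from these 3 genes.

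**Figure D2:**
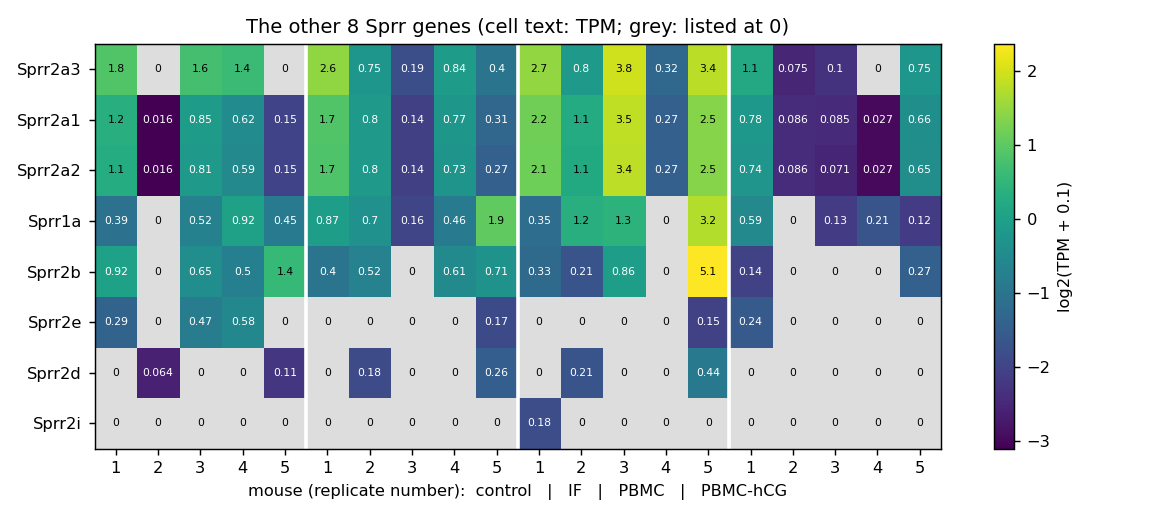
Heat map of the 8 less abundant Sprr genes (rows) in the 20 mice (columns, by group and replicate number). The number in a cell is TPM, the colour is log2(TPM + 0.1), and grey cells are listed at 0. Control replicate 2, PBMC replicate 4 and PBMC-hCG replicates 2 to 4 are low or at 0 across most rows, and Sprr2b reaches 5.06 TPM in PBMC replicate 5.

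Mice that were low for Sprr2f were in part low for the others. The 3 lowest mice for Sprr2f were PBMC-hCG replicates 3, 4 and 2, followed by IF replicate 3, control replicates 2 and 5 and PBMC replicate 4. Control replicate 2 had the lowest Sprr2a1 of all 20 mice, 0.0158 TPM, and the 17th lowest Sprr2g, 22.5 TPM, so there the Sprr2g level did not go with the rest. In the sum over all Sprr genes, the control group ranged from 17.4 to 157 TPM, the IF group from 19.9 to 71.9, the PBMC group from 15.0 to 159.8 and the PBMC-hCG group from 4.58 to 32.8. Sprr2f made up 32.8% to 91.6% of that sum and Sprr2g 2.61% to 66.9%.

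The comparison of IF with control mice asks what RU486 changed. None of the 4 members above 0 in all libraries passed limma's test on log2(TPM + 0.1), in which a call was an adjusted p-value under 0.05 (Benjamini-Hochberg) over the 18706 genes above 0 in all libraries, and of all genes tested 21.9% did. No raw p-value of the 4 was under 0.05 either, where 33.9% of all genes had one. On the log2 scale Sprr2f differed by -0.85 (SE 0.74, adjusted p = 0.456) and Sprr2g by -0.82 (SE 0.99, adjusted p = 0.616). Sprr2a1, in turn, stood at 0.49 (SE 0.76, adjusted p = 0.702). The median over all genes was 0.0223. Without control replicate 2 the values of Sprr2a1 and Sprr2a2 were -0.016 and -0.011, so that their direction rested on this mouse.

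PBMCs cultured without hCG were compared with IF. No gene of the 18706 passed (0% called by adjusted p-value, while 1271 genes, 6.79%, had a raw p-value under 0.05), and none of the 4 members reached a raw p-value under 0.05. The log2 differences were 1.11 (SE 0.74, adjusted p = 0.783) for Sprr2f, 1.22 (SE 0.76, adjusted p = 0.781) for Sprr2a1 and 1.24 (SE 0.76, adjusted p = 0.776) for Sprr2a2 by limma. Sprr2g, at -0.46 (SE 0.99, adjusted p = 0.941), went to 0.50 without PBMC replicate 4.

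Against the control group, Sprr2a1 differed by 1.72 (SE 0.76, adjusted p = 0.126) and Sprr2a2 by 1.73 (SE 0.76, adjusted p = 0.119) in PBMC mice on the log2 scale, by limma. None of the 4 members was called, where 19.5% of all genes were, and Sprr2a1 and Sprr2a2 had raw p-values of 0.0362 and 0.0333, where 31.6% of all genes had one under 0.05. PBMC replicate 4, the mouse with the lowest Sprr2g of its group, decided this result. Without it, the pair was called at 2.24 (adjusted p = 0.0484) and 2.25 (adjusted p = 0.0455). Sprr2f had a difference of 0.26 (SE 0.74, adjusted p = 0.852), which turned to -0.21, -0.16 and -0.035 without control replicate 2, control replicate 5 or PBMC replicate 5.

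PBMC-hCG mice had less Sprr2f and Sprr2g RNA than control mice. Sprr2g fell by 4.40 on the log2 scale (SE 0.99, adjusted p = 0.00267 by limma) and was lower than the control minimum in 4 of 5 mice. Sprr2f fell by 2.20 (SE 0.74, adjusted p = 0.0289), with 3 of 5 mice under the control minimum. The 2 members called, of 4 tested, stand beside 31.8% of all genes called in either direction and 11.6% called lower. Sprr2a1 was at -0.62 (SE 0.76, adjusted p = 0.572) and Sprr2a2 at -0.62 (SE 0.76, adjusted p = 0.567). The call of Sprr2f was lost without any of control replicates 1, 3 and 4 or PBMC-hCG replicates 2, 3 and 4 (adjusted p = 0.0648 to 0.0801), while Sprr2g was called whichever mouse of these groups was left out. Its log2 difference was -5.13 without PBMC-hCG replicate 1, -5.11 without control replicate 5 and -3.27 with a pseudocount of 1.

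Compared with IF, the group that shares RU486, Sprr2g was the member called in the PBMC-hCG group. It was lower by 3.58 on the log2 scale (log2 difference -3.58, SE 0.99, adjusted p = 0.0335 by limma), with no overlap between the groups, beside 13.6% of all genes called in either direction and 5.99% called lower. For 2.19% of all genes the PBMC-hCG mice all lay below the IF mice. Sprr2f differed by -1.35 (SE 0.74, adjusted p = 0.198), Sprr2a1 by -1.11 (SE 0.76, adjusted p = 0.306) and Sprr2a2 by -1.11 (SE 0.76, adjusted p = 0.303). The size for Sprr2g lay between -3.72 and -3.15 without each of IF replicates 2, 4 and 5 and PBMC-hCG replicates 2 to 5, but in each of these 7 fits its adjusted p-value was 0.0599 to 0.106. Without PBMC-hCG replicate 1, the highest of its group, it was -4.32, and with a pseudocount of 1 it was -2.46, both called (adjusted p = 0.0104 and 0.0423 by limma). The comparisons with control and with IF share the PBMC-hCG mice and are not separate evidence.

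The direct comparison of PBMC-hCG with PBMC mice asks what culture with hCG added. No member was called by adjusted p-value, as for nearly all genes (0.0107% called). Sprr2g was at -3.12 (SE 0.99, adjusted p = 0.268), Sprr2f at -2.46 (SE 0.74, adjusted p = 0.266), Sprr2a1 at -2.33 (SE 0.76, adjusted p = 0.271) and Sprr2a2 at -2.35 (SE 0.76, adjusted p = 0.269), all by limma. All 4 met the criterion that the study used for its gene counts, a raw p-value under 0.05 together with a change of 2-fold or more, which 0.508% of all genes met in the lower direction. Their raw p-values lay between 0.00352 and 0.00646. Since Sprr2a1 and Sprr2a2 share their coding sequence, these are 3 measurements at most, and they come from the same 10 mice. The groups overlapped for each of the 4 genes through PBMC replicate 4, and for Sprr2g through PBMC replicate 2 as well.

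**Figure D3:**
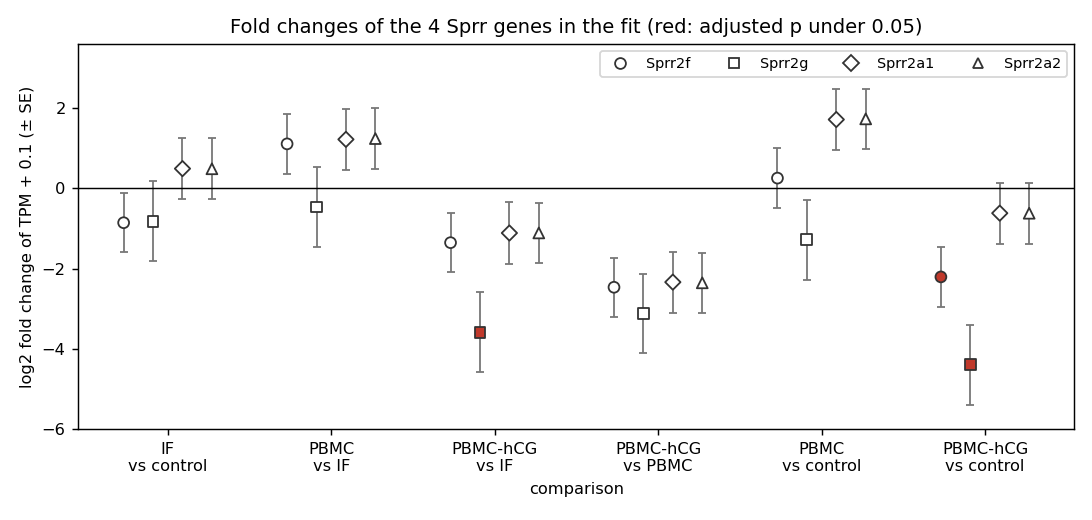
Log2 fold change of TPM + 0.1 (vertical axis) of the 4 Sprr genes above 0 in all libraries in 6 comparisons (horizontal axis), with bars of 1 standard error from limma. Red symbols mark an adjusted p-value under 0.05, which Sprr2g reached against IF (-3.58) and control (-4.40) and Sprr2f against control (-2.20).

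For the 6 members with values at 0, mean log2(TPM + 0.1) was compared in each of the 6 comparisons by a two-sided exact permutation test of 5 against 5 mice, in which 0.00794 is the smallest p that can be reached. Of these 36 tests, 1 gave an exact p under 0.05. Sprr2a3 was at 0.396 ± 0.475 TPM in the PBMC-hCG and 2.20 ± 1.55 TPM in the PBMC group (SD, n = 5 each), a log2 difference of -2.40 (exact p = 0.0397), and in a limma fit with no filter on low values its adjusted p was 0.386 over all genes. The difference was -3.38 with a pseudocount of 0.01 and -1.09 with 1, and the exact p rose to 0.0794 without any of PBMC replicates 1, 3 and 5 and PBMC-hCG replicates 2, 3 and 4. Sprr1a differed by -1.55 between PBMC-hCG and IF mice (exact p = 0.0635). Sprr2b differed by -1.53 from IF (exact p = 0.0794) and by -1.91 from control (exact p = 0.0635). These exact p-values are not adjusted for the number of tests, and for so low values the pseudocount draws the difference toward 0.

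Promoters of the members were compared because several members were low in the same mice. RefSeq sequences of GRCm38.p6 were available for 9 of the 10, Sprr2g being the exception, and the 250 bases before the annotated start were searched on both strands. The AP-1 motif TGANTCA, bound by Fos and Jun proteins, was in 6 of 9 members and in 6.87% of all 27025 promoters of that length. The octamer ATGCAAAT, bound by POU factors, was in 5 of 9 and in 1.61% of all. The same 5 members, Sprr2f, Sprr2b, Sprr2d, Sprr2e and Sprr2i, held both motifs at nearly the same positions. They cannot be counted as separate occurrences against these shares. In the sequences below, printed along the strand of the gene, matches are in capitals and do not overlap each other.
Sprr2f, chr3:92364937-92365186, plus strand: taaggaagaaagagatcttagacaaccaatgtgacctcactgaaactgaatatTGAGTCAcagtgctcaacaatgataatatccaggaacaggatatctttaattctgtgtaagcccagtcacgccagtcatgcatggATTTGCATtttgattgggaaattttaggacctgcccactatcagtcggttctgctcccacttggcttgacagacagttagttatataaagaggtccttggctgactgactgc
Sprr2b, chr3:92316455-92316704, plus strand: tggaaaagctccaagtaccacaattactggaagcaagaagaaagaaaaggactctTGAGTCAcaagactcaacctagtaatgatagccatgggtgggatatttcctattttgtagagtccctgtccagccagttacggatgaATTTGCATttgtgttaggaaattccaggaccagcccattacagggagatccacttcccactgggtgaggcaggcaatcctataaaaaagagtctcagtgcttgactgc
Sprr1a, chr3:92485882-92486131, minus strand: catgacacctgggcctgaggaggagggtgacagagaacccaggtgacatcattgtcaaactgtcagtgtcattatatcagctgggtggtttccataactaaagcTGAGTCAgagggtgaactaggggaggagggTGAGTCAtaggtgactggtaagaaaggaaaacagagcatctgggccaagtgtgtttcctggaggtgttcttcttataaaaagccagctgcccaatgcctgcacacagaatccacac
Sprr2a1, chr3:92215585-92215834, plus strand: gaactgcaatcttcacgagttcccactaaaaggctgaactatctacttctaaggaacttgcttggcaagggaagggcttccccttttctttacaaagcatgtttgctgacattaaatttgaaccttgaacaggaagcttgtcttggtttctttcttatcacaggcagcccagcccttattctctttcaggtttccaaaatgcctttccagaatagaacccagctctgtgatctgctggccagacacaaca
The AP-1 match began 197 bases before the start in Sprr2f, 195 in Sprr2b and 193 in Sprr2d, Sprr2e and Sprr2i, and the octamer 112 bases before it in Sprr2f and 108 in the other 4. Sprr1a held the AP-1 letters at 146 and at 116 bases and no octamer. Sprr2a1, Sprr2a2 and Sprr2a3 held neither in this window. In these 3 genes the coding sequence lies farther from the annotated start than in Sprr2f. It begins at chr3:92219092 for a start at chr3:92215835 in Sprr2a1, and at chr3:92365896 for a start at chr3:92365187 in Sprr2f. Bases before any later start of these genes were not searched. The palindromic estrogen response element, GGTCA and TGACC with 3 bases between, was in none of the 9 and in 0.0629% of all promoters, and the interferon-stimulated response element, GAAA repeated after 2 bases, in none of the 9 and in 3.04% of all. Both of these elements are so rare that their absence from 9 promoters is not informative. A match describes letters and no binding was measured.

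**Figure D4:**
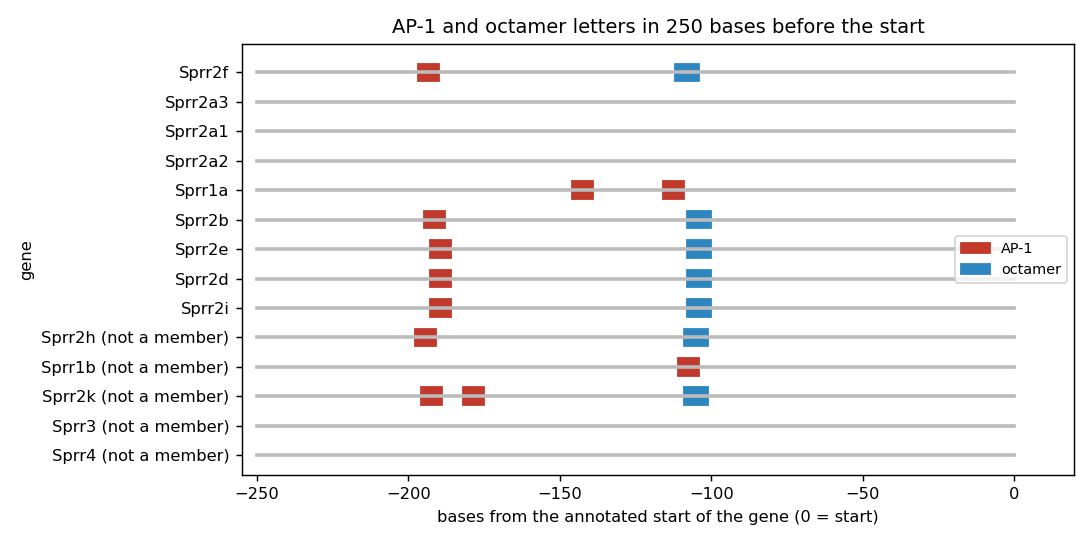
Positions of AP-1 (red) and octamer (blue) letters in the 250 bases before the annotated start of 14 Sprr genes (rows, members first). The horizontal axis is the distance from the start in bases. In Sprr2f, Sprr2b, Sprr2d, Sprr2e and Sprr2i both motifs lie at nearly the same distances, and the 3 Sprr2a genes hold neither before the start used here.

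Among transglutaminases, the enzymes that crosslink SPRR proteins, Tgm1, the keratinocyte form, was lowest in the group where Sprr2g was lowest. It was at 3.91, 1.64, 3.37, 2.79 and 7.22 TPM in control replicates 1 to 5, at 3.40, 4.84, 2.35, 4.86 and 8.57 in IF, at 3.77, 2.74, 3.86, 2.19 and 5.57 in PBMC and at 2.26, 1.68, 1.50, 0.928 and 1.56 in PBMC-hCG mice. All PBMC-hCG mice lay below all IF mice. Tgm1 fell by 1.46 on the log2 scale against IF (SE 0.36, adjusted p = 0.0287 by limma) and by 1.09 against control (SE 0.36, adjusted p = 0.0264), and it was at -1.12 against PBMC (SE 0.36, adjusted p = 0.268) and at 0.37 in IF against control (adjusted p = 0.519). The call against IF was lost without any of the same 7 mice as that of Sprr2g (adjusted p = 0.0543 to 0.0995), and that against control without control replicate 1 or 5 or PBMC-hCG replicate 4 (adjusted p = 0.0554 to 0.0849). The adjustment over all genes differed between the fits against IF, so this shared loss does not show that both genes rest on the same mice. Tgm2, tissue transglutaminase, was far more abundant, at 570.1 ± 121 TPM in IF and 428 ± 45.7 TPM in PBMC-hCG mice (SD, n = 5 each). It fell by 0.40 on the log2 scale (SE 0.11, adjusted p = 0.0344 by limma). That call was lost in 10 of 21 refits under other settings or with a mouse left out. In IF against control Tgm2 was higher by 0.32 (SE 0.11, adjusted p = 0.0438), a call lost in 14 of 21 refits. Against control, unlike Tgm1, it stood at -0.07 in PBMC-hCG mice (SE 0.11, adjusted p = 0.647). Of the 8 transglutaminase genes listed, 3 were tested. In PBMC-hCG against IF 2 were called lower and none higher, beside 13.6% of all genes called in either direction.

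**Figure D5:**
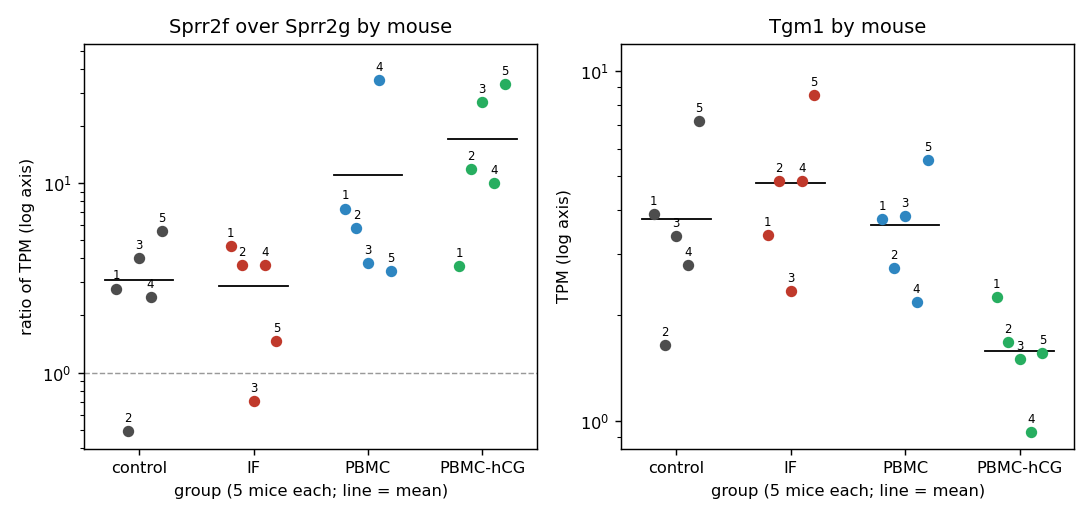
Ratio of Sprr2f to Sprr2g TPM (left) and TPM of Tgm1 (right) in each mouse, on log axes. Points carry replicate numbers, lines are means of 5 mice, and the dashed line marks equal Sprr2f and Sprr2g. The ratio is highest in PBMC replicate 4 at 35.0, and Tgm1 is at 0.928 to 2.26 TPM in PBMC-hCG mice and at 2.35 to 8.57 TPM in IF mice.

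Some envelope partners of SPRR proteins were found in these uteri and many were not. Of 40 other genes of the cornified envelope and the epidermal differentiation complex, 26 were listed at 0 in every library, filaggrin (Flg) among them, and 7 were tested. Ivl, encoding involucrin, was above 0 in 12 libraries with a mean of 0.0766 TPM. Lor, encoding loricrin, was above 0 in all libraries with a mean of 1.03 TPM. Evpl, Dsp and Cstb, described below, had means of 3.69, 7.79 and 188 TPM. Against control, Evpl, which encodes the plakin envoplakin, rose by 0.85 on the log2 scale in IF mice (SE 0.14, adjusted p = 0.00032 by limma), and Tchh, trichohyalin, fell by 0.62 (SE 0.19, adjusted p = 0.0232). The Tchh call was lost without IF replicate 3 or 4 (adjusted p = 0.0643 and 0.0657) and with the 2 groups fitted alone (adjusted p = 0.0762). Between PBMC-hCG and IF mice, Dsp, the desmosomal plakin desmoplakin, rose by 0.59 (SE 0.15, adjusted p = 0.0307) and Cstb, the protease inhibitor cystatin B, fell by 0.31 (SE 0.08, adjusted p = 0.0325). The list therefore moved in both directions, with medians of 0.12 and 0.13 in the respective comparisons. Of 15 S100 genes, which stand beside the Sprr genes or encode calcium-binding relatives, 10 were tested. In IF mice 3 were higher and 1 lower than in control, where 21.9% of all genes were called. Between PBMC-hCG and IF mice, where 13.6% of all genes were, none was called.

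Many candidate regulators of Sprr genes were called in IF mice. The 4 Sprr genes tested were not, but their standard errors were 0.74 to 0.99, against 0.06 to 0.55 for the regulators named below. Their lack of a call therefore does not show that they stayed unchanged. Of 25 genes listed, 21 were tested. In IF against control 13 were called higher and 1 lower, where 21.9% of all genes were called in either direction. The median was 0.51 on the log2 scale, against 0.0223 over all genes. Pgr, the progesterone receptor, rose by 1.71 (SE 0.14, adjusted p = 1.44e-07 by limma), Esr1, estrogen receptor alpha, by 0.51 (SE 0.06, adjusted p = 5.98e-06) and Elf3, an epithelial ETS factor, by 1.29 (SE 0.16, adjusted p = 1.85e-05). The AP-1 genes Fosl2, at 1.15 (SE 0.19, adjusted p = 0.000201), and Junb, at 1.21 (SE 0.29, adjusted p = 0.00559), and Klf4, a factor of epithelial barrier formation, at 0.82 (SE 0.21, adjusted p = 0.0083), also rose. Fos, another AP-1 gene, rose by 1.71 (SE 0.55, adjusted p = 0.0325), a call lost in 7 of 21 refits. Between PBMC-hCG and IF mice, where 13.6% of all genes were called, 1 of the 21 was called higher and 2 lower, with a median of -0.18. Fosl2 was among the latter, from 147 ± 22.1 TPM in IF to 79.8 ± 19.1 TPM in PBMC-hCG mice (SD, n = 5 each), a fall by 0.90 (log2 difference -0.90, SE 0.19, adjusted p = 0.0258), and Klf4 stood at -0.42 (SE 0.21, adjusted p = 0.151).

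Other estrogen-induced secretory genes of the uterine epithelium were called in both directions. Of 10 listed, 9 were tested, and 2 were called higher and 1 lower in PBMC-hCG than in IF mice, beside 13.6% of all genes. The median was 0.15 on the log2 scale. C3, complement component 3, rose by 0.61 (SE 0.16, adjusted p = 0.0307 by limma) and Slpi, a secretory protease inhibitor, by 0.75 (SE 0.19, adjusted p = 0.0292). Lcn2, lipocalin 2, fell by 1.30 (SE 0.40, adjusted p = 0.0417). Ltf, lactoferrin, was at 31.9 ± 18.9 TPM in IF and 31.6 ± 17.0 TPM in PBMC-hCG mice (SD, n = 5 each) and was not called. As for Sprr2g, the calls of Tgm2, Dsp, Cstb, Fosl2, C3, Slpi and Lcn2 against IF were each lost without any of IF replicates 2, 4 and 5 and PBMC-hCG replicates 2 to 5. The adjustment over all genes moved between these fits. For Slpi, a raw p-value of 0.00239 by limma became an adjusted p of 0.0590 without IF replicate 2. Without IF replicate 3, a raw p-value of 0.00266 became 0.0202. The shared losses therefore do not show that these genes rest on the same mice.

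Markers of the tissue's cell types were read beside the low Sprr values. Of the 8 epithelial markers, 6 were called higher and 1 lower in IF than in control, where 21.9% of all genes were called. Between PBMC-hCG and IF mice, where 13.6% of all genes were, 1 was called, Krt8, which was higher. The summed epithelial markers were thus not lower in the PBMC-hCG group, in which Sprr2g and Tgm1 were lowest. Myometrial markers had median sums of 5956, 4430.1, 4692 and 3675 TPM in the order used above. None of 6 was called between PBMC-hCG and IF, and 4 were called lower against control, where 11.6% of all genes were. Of 6 stromal markers 1 was called higher between PBMC-hCG and IF, and none of the markers tested of T, B and NK cells (6), myeloid cells (6) or embryo and oviduct (1) was called there. Of 10 markers of stratified squamous epithelium 4 were tested. In IF against control 2 were called higher and 0 lower, and in PBMC-hCG against IF 1 higher and 0 lower. Between PBMC-hCG and control mice, where 31.8% of all genes were called, 2 were higher and 0 lower. The part of these shifts in the Sprr values was not tested.

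Genes whose level followed the Sprr genes across mice were sought by the Pearson correlation of log2 values with the mean standardized level of Sprr2f, Sprr2g, Sprr2a1 and Sprr2a2, among 15769 genes with a mean of at least 1 TPM. The points are 20 mice of 4 groups, so shared group differences enter. The correlation of deviations from group means is given for Stmn4 and Ihh, and both measures are descriptions. Sprr2a1 and Sprr2a2 each enter the mean level, although they cannot be read as separate measurements. The most alike was Stmn4, a stathmin gene, with r of 0.860 over all mice and 0.819 within groups. It was followed by Miat (0.858), Ublcp1 (0.855), Becn1 (0.848), Slc10a3 (0.845), Zfp57 (0.838), Tor2a (0.830), Noct (0.827), Ihh (0.823) and 1110008P14Rik (0.820). Ihh, Indian hedgehog, a signal of the uterine epithelium, was at 0.783 within groups. Its values were 47.4, 4.83, 39.4, 39.5 and 12.9 TPM in control replicates 1 to 5, so control replicates 2 and 5 were low for Ihh as for Sprr2f, and IF replicate 3, at 8.02 TPM, was the lowest of its group for both. In PBMC mice Ihh was at 30.6, 30.4, 61.5, 29.5 and 55.1 TPM. Replicate 4, the lowest PBMC mouse for Sprr2f, was thus barely below replicates 1 and 2 for Ihh. In PBMC-hCG mice Ihh lay between 9.50 and 24.4 TPM.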

How the data were processed

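RNA of 20 uteri was measured. According to the study's methods and the processing notes, the authors prepared strand-specific mRNA libraries and used Trimmomatic for trimming, HISAT2 for mapping to mm10 and StringTie for assembly. Versions are not given in the sources used here. The values the authors deposited are TPM per gene. TPM keep no depth, and reads that fit several Sprr genes were divided by the assembler in a way not given.

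Values were transformed to log2(TPM + 0.1), which understates the change of low genes. The 18706 genes above 0 in all libraries were fitted in a shared model of the 4 groups by limma (version 3.58.1, run in R version 4.3.3), allowing a variance trend, with Benjamini-Hochberg adjustment over all genes of a comparison. The authors' own test, edgeR's exact test, needs counts. Members outside the filter were compared by exact permutation over 252 arrangements with scipy 1.17.1. The fit was tested on simulated data. Replicate numbers are not stated to mark a shared litter or day, nor that libraries came from separate cages, so p-values measure the spread between these mice. Same-numbered mice deviated with correlations of -0.247 to 0.457, so no block was used. No batch is named in the labels.

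Coding sequences came from GENCODE M21 and promoters from RefSeq, with gene positions of GRCm38. The members and lists were chosen with earlier results of these data known. Named genes were all members, the next Sprr genes below the ranking, genes of the lists with an adjusted p-value under 0.05 between IF and control or PBMC-hCG and IF (at most 5 per list by size), Tgm1, Tgm2, Ivl, Klf4, Esr1, Pgr and Ltf, and the 10 genes most alike. Not every gene that met the rule for the lists was described. S100a9 and Muc4, called higher in IF than in control mice, were among those left out. Krt5, Krt8, Flg and Lor were named after their values had been seen. Figures were drawn with matplotlib 3.10.9.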

Additional observations from a re-analysis of the deposited data

Results flagged for a closer look

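Within each group of 5 mice, the highest and the lowest log2(TPM + 0.1) of each of the 10 Sprr genes was set against the rest by Dixon's criterion (gap over range above 0.71), which chance alone exceeds in about 1 in 20 groups. Of 36 groups with any spread, 6 held such a mouse. Control replicate 5 had 2.31 TPM of Sprr2g, where the next lowest control mouse had 21.1 TPM. IF replicate 3 was listed at 0 for Sprr2b, beside 0.402 TPM in the next lowest mouse. Sprr2e was at 0.172 TPM in IF replicate 5, at 0.146 TPM in PBMC replicate 5 and at 0.240 TPM in PBMC-hCG replicate 1, with the other 4 mice of each group at 0. Sprr2i was at 0.183 TPM in PBMC replicate 1 and at 0 in the other 4. For the last 4 values the gap is the whole range by construction, since the other mice do not differ.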

How the results depend on the processing

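Settings tried were pseudocounts of 0.01 and 1, other filters, median centring, quantile normalization, limma without a variance trend or with robust estimation, the 2 groups of a comparison alone, a replicate block and each mouse left out. Of 627 refits of single Sprr values, 603 kept direction and side of the threshold, 16 lost and 2 gained a call and 6 changed sign. The sign changes were those without control replicate 2 (Sprr2a1 -0.016 and Sprr2a2 -0.011 in IF against control, Sprr2f -0.21 in PBMC against control), without control replicate 5 (Sprr2f -0.16) or PBMC replicate 5 (Sprr2f -0.035) in the same comparison, and without PBMC replicate 4 (Sprr2g 0.50 in PBMC against IF). With each mouse left out, these values ranged from -0.016 to 0.87 and from -0.011 to 0.85 for Sprr2a1 and Sprr2a2, from -0.21 to 0.71 for Sprr2f and from -1.01 to 0.50 for Sprr2g. With mice left out in turn, 0 to 1 members were called in PBMC-hCG against IF, 1 to 2 in PBMC-hCG against control and 0 to 2 in PBMC against control. With no filter on low values the counts were 0 against IF (Sprr2g adjusted p = 0.0563) and 1 against control (Sprr2f adjusted p = 0.0502), and with the 2 groups alone 1 against control (Sprr2f adjusted p = 0.0553). Under the study's criterion, added after the data were seen, the counts were 4 in PBMC-hCG against PBMC and 2 in PBMC against control. In the fit with the replicate block the counts were 1 in PBMC-hCG against IF, 2 against control and 0 in the other comparisons, and no member's call changed. Of 504 refits for genes of the lists, 404 kept their side, 100 lost a call and none changed sign. Sprr2a3, Sprr1a and Sprr2b were refitted for the comparisons of PBMC-hCG under other pseudocounts, filters, centring and with mice left out, and the remaining settings were not run for members outside the filter. TPM without counts leave the error of values under 1 TPM unknown.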
